A study of Caenorhabditis elegans with 6 samples.

Results

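Chromosome III of C. elegans held 1494 of the 8836 UNC-55::GFP binding regions in the combined list of the study, or 16.9%, on 13.8% of the spanned sequence. Members were all regions placed on III, on the WormBase WS220 build. The same rule gave 1192 of 6805 regions in replicate 1, 926 of 4909 in replicate 2 and 585 of 2803 in replicate 3. UNC-55 was mapped by ChIP-seq with an antibody to GFP in hermaphrodites of strain NC1639 at the L2 larval stage. There were 3 ChIP samples and 3 inputs of unprecipitated chromatin from the same strain, and the input samples have no region list used here. The title of the series gives a different factor and stage from the sample labels, which all name UNC-55 and L2 and were followed.

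All samples, inputs included, carried the integrated transgene wdIs49 on III, which expresses UNC-55a fused to GFP from the promoter written pttr39, with dpy-20+. The labels place the GFP signal in ventral cord GABA neurons that drive muscle, and ectopically in some other cells. They give the strain as not outcrossed. No strain without the tagged protein was analysed here. Whether separate cultures were used for the replicates is not stated in the labels, so p-values over them measure only the spread between these samples, which may be technical. Read depth is unknown, because the lists hold positions and caller values only.

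UNC-55 is the worm COUP-TF. This family of nuclear receptors consists of zinc finger proteins that bind DNA and are best known as repressors of transcription. In the ventral cord it acts in the VD class of GABA motor neurons, where it holds back the synaptic remodelling that the DD class undergoes. Each C. elegans autosome has a central part, rich in widely expressed genes and low in recombination, between arms with more repeats and more recombination. Here the centre of III runs from 3720000 to 10340000, by region midpoint, and the arms are the sequence on either side up to 13771446, the end of the last region in any list.

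UNC-55::GFP regions were denser on III than on any other chromosome in each of the 3 replicates. Chromosome III had 86.6 regions per Mb in replicate 1, 67.2 in replicate 2 and 42.5 in replicate 3. The other 5 chromosomes, pooled, had 65.0, 46.1 and 25.7 regions per Mb. In every replicate III was thus the higher of the pair, by 1.33 times in replicate 1, 1.46 times in replicate 2 and 1.65 times in replicate 3, with a mean of 1.48 ± 0.16 (SD, n = 3). An exact two-sided sign-flip permutation test over the 3 replicates gave p = 0.25, the smallest that 3 pairs allow (Benjamini-Hochberg adjusted p = 0.30 over 6 tests of III). The design therefore cannot reach a threshold of 0.05. In the combined list III had 108 regions per Mb against 85.1 elsewhere, a ratio of 1.28. The ratio was largest in the shortest list, and replicate 3 is also the list in which chromosome IV held the smallest share, 7.21% of regions. Against all others except chromosome IV the replicate mean fell to 1.35.

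**Figure D1:**
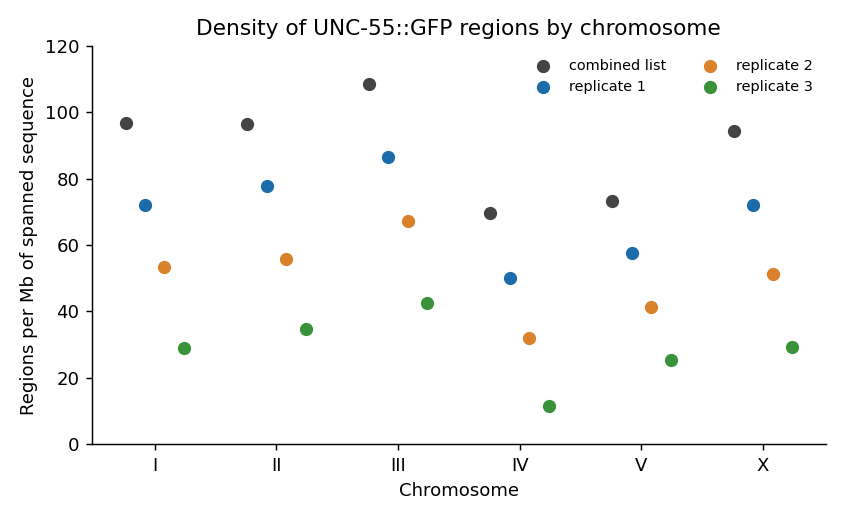
Regions per Mb of spanned sequence (vertical axis) on each of the 6 chromosomes, with 1 point for each list, the 3 ChIP replicates and the combined list. Chromosome III is the highest point of all 4 lists, at 108 per Mb in the combined list and 42.5 in replicate 3.

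Chromosome II was set beside III as the nearest in its replicate means of width and of short gaps, although in single lists chromosome I, V or X was nearer in one or the other. Its 1474 combined regions gave 96.6 per Mb, and III exceeded it by 1.11, 1.21 and 1.22 times in replicates 1, 2 and 3 (exact permutation p = 0.25, adjusted p = 0.42 over 5 comparisons added after the data were examined). Median width was 396 ± 10 bp on III and 390 ± 15 bp on II (SD, n = 3), and III was the wider in replicates 1 and 3 and the narrower in replicate 2. The share of neighbours at most 2 kb apart was 20.6 ± 7.2% on III and 20.9 ± 8.7% on II over the replicates. In the combined list it was 32.8% on III and 36.0% on II. Paired by replicate, the ratio of III to II in the share of close neighbours was 0.94, 0.98 and 1.10 in replicates 1, 2 and 3. Because II was chosen on width and short gaps, its likeness to III in both follows from that choice and is not a result.

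Within III the central part carried more regions per Mb than the arms in every replicate. Of the 1494 combined regions, 855 lay in the centre, 293 on the left arm and 346 on the right arm, over 6.62, 3.72 and 3.43 Mb. Central density was 105 regions per Mb in replicate 1, 81.6 in replicate 2 and 52.3 in replicate 3. Both arms together had 69.9, 54.0 and 33.4 regions per Mb. The centre-to-arms ratio hardly varied among the replicates, at 1.5, 1.51 and 1.56 (mean 1.52 ± 0.04, SD, n = 3, exact sign-flip permutation p = 0.25, the smallest possible, adjusted p = 0.30). It was 1.45 in the combined list, where the centre had 129 regions per Mb and the arms 89.4. Regions covered 7.05% of the centre, 4.15% of the left arm and 4.98% of the right arm in the combined list.

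The arms were not alike. Density on the right arm was 75.5, 60.9 and 38.5 regions per Mb in replicates 1, 2 and 3, against 64.8, 47.6 and 28.8 on the left arm. The right arm was the denser of the pair in 3 of 3 replicates, by 1.26 ± 0.09 times (SD, exact permutation p = 0.25, adjusted p = 0.42 over the same 5 comparisons). The centre still exceeded the right arm alone, by 1.36 ± 0.02 times in the replicates (SD, n = 3, exact permutation p = 0.25, adjusted p = 0.42). At the left boundary of the centre the nearest combined regions ran from 3719544 to 3719967 outside it and from 3734021 to 3734380 inside it. At the right boundary they ran from 10333822 to 10334234 inside and from 10357697 to 10358088 outside.

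Counted in 1 Mb bins, the combined list began with 77, 66 and 57 regions in the first 3 bins from the left end. It then rose to 130 in the bin from 3 to 4 Mb, so the step lies within a single bin that also holds the left boundary of the centre. The following bins held 128, 141, 115, 123, 159, 119 and 109 regions, with the highest count from 8 to 9 Mb. From 11 Mb to the right end the counts were 103, 74 and 93, the last over an incomplete bin. The highest of the 13 full bins exceeded the lowest by 2.79 times in the combined list and by 2.93, 2.72 and 2.91 times in replicates 1, 2 and 3. In each of the 4 lists the bin from 8 to 9 Mb was the fullest and the bin from 2 to 3 Mb was at the lowest count, shared in replicate 2 with the bin from 1 to 2 Mb. Replicate 3 counted 64 regions in the former and 22 in the latter. Spearman's rho between bin counts of 2 replicates was 0.95, 0.92 and 0.93 over the 13 full bins, as a description of lists that share the genome and its mappability.

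**Figure D2:**
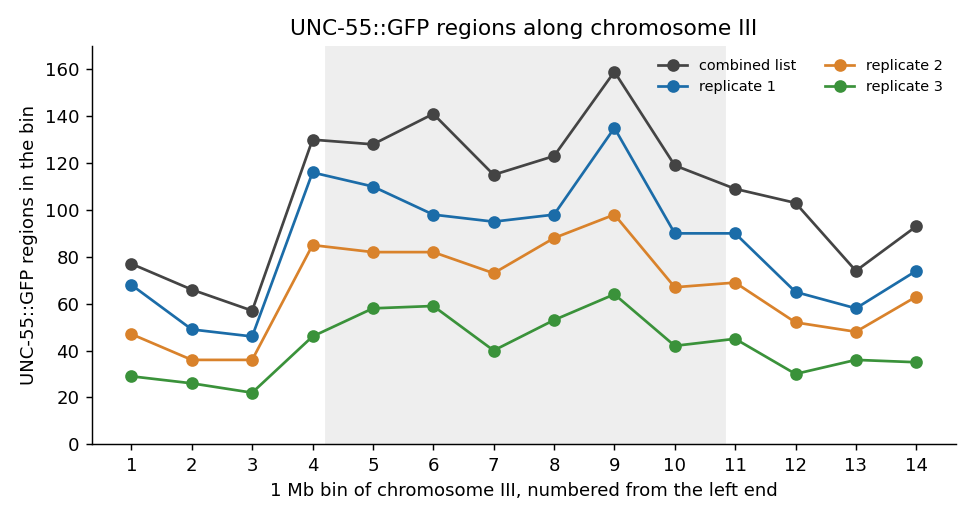
Number of UNC-55::GFP regions (vertical axis) in 14 consecutive 1 Mb bins of chromosome III, numbered from its left end, with 1 line for each list and the central part shaded; the last bin is incomplete. All 4 lines step up at bin 4 and peak at bin 9, with 159 combined regions.

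In bins of 0.5 Mb the change at the left was gradual. Combined counts were 28 from 2.5 to 3 Mb, 54 from 3 to 3.5 Mb and 76 from 3.5 to 4 Mb, so part of the rise lay outside the fixed boundary. The right arm held a local low of 24 regions from 12 to 12.5 Mb, followed by 50 and 60 in the next 2 bins. Of its 24 regions, 12 were found in all 3 replicates (50%), against 36.1% of all III regions and 29.5% of all combined regions. The share was 23.9% (11 of 46) in the neighbouring bin from 11.5 to 12 Mb and 42% in that from 12.5 to 13 Mb.

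Reproducibility was described by overlap of at least 1 bp with the replicate lists. The combined list shares its samples with them, and how it was made is not stated. On III 539 of 1494 combined regions overlapped a region in all 3 replicates, or 36.1% (exact 95% interval 33.6 to 38.6%, counting error only), against 29.5% of all combined regions. Another 334 regions (22.4%) were found in 2 replicates, 303 (20.3%) in 1 and 318 (21.3%) in none, against 22.9%, 23.2% and 24.4% over all chromosomes. Each of the other chromosomes had a lower share in all 3 replicates than III, between 14.8% on IV and 34.3% on II, and the interval for II reached 36.8%. Without chromosome IV the others reached 30.8%. No test was made of these shares, because the lists are not independent of one another.

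The count depended most on replicate 3, which has the shortest list. Of the III regions, 318 had a match in replicates 1 and 2 and none in replicate 3, whereas 13 lacked only replicate 2 and 3 lacked only replicate 1. Without replicate 3 the count found in all remaining replicates was 857. Among regions seen in a single replicate, 273 were seen in replicate 1, 29 in replicate 2 and 1 in replicate 3. Taken from the other side, 581 of the 585 III regions of replicate 3 overlapped replicate 1, a share of 99.3%, equal to the 99.3% of its whole list. A combined region overlapped 585 of 585 of them, against 99.1% of the whole list. Replicate 2 held 73.7% and replicate 3 held 47.7% of the III regions of replicate 1, against 68.9% and 40.4% of its whole list. Of those of replicate 2, 60.8% were found in replicate 3, against 54.9% of its whole list.

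Replicate support was similar in the centre and on the arms. In the centre 313 of 855 regions were found in all 3 replicates (36.6%, exact 95% interval 33.4 to 39.9%), on the left arm 101 of 293 (34.5%, 29.0 to 40.2%) and on the right arm 125 of 346 (36.1%, 31.1 to 41.4%). These intervals overlap one another almost wholly. The bins of 1 Mb ranged from 29.1% in all 3 replicates from 11 to 12 Mb to 44.6% from 12 to 13 Mb.

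Width and caller rank followed replicate support on III, as they did on the other chromosomes. The caller's p or q value, the score of PeakSeq, ranks regions within a list and is the authors' own. Median width was 551 bp for III regions found in all 3 replicates, 442 bp in 2, 337 bp in 1 and 247 bp in none. Their median ranks in the combined list were 1480, 3650, 5879 and 7697. On the other chromosomes the median widths were 609, 482, 381 and 266 bp and the median ranks 1340.5, 3571, 5669 and 7628.5, in the same order. The division by rank that follows was made for III only. When the 1494 regions were put in order of rank and divided into 4 sets of near equal size, 363 of 374 in the best set were found in all 3 replicates (97.1%), 167 of 373 in the next (44.8%), 8 of 374 in the one after and 1 of 373 in the last. In that last set 281 regions (75.3%) had no match in any replicate. The best-ranked III region without a match, from 901583 to 902581 on the left arm, was 999 bp wide and held rank 4887.

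**Figure D3:**
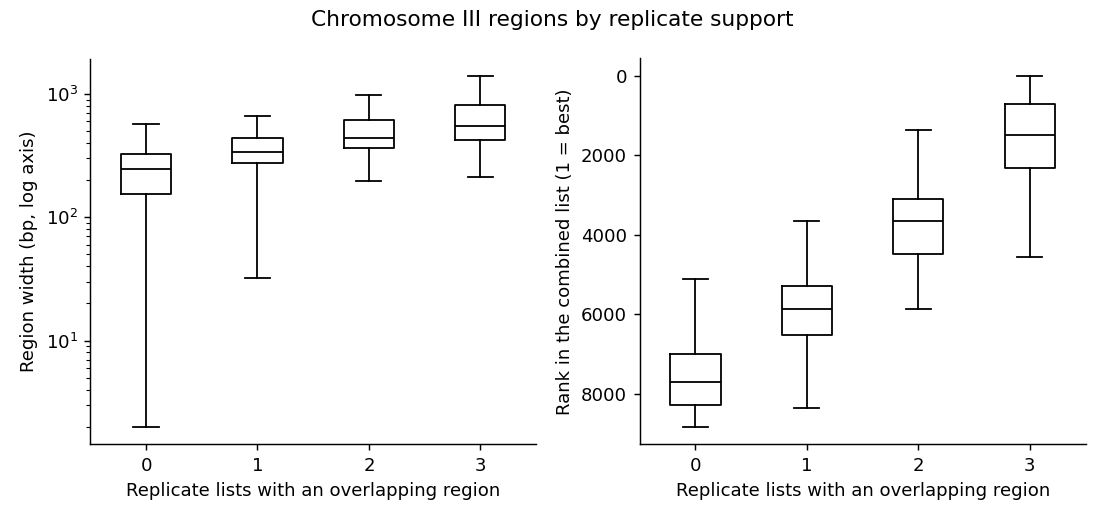
Width in bp on a log axis (left) and rank in the combined list with the best rank at the top (right) of the 1494 combined regions of chromosome III, grouped by the number of replicate lists with an overlapping region; boxes show quartiles and median, whiskers reach at most 1.5 times the interquartile range, and points beyond them are not drawn. Median width rises from 247 bp with no match to 551 bp with 3.

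Regions of III were slightly narrower than those of the other 5 chromosomes pooled, though not than those of chromosome II in replicates 1 and 3. Median width was 404.5 bp in replicate 1, 399.5 bp in replicate 2 and 385 bp in replicate 3. On the other chromosomes it was 417, 420 and 408 bp. III was the narrower in 3 of 3 replicates, by a ratio of 0.95 ± 0.01 (SD, exact permutation p = 0.25, adjusted p = 0.30). Centre and arms did not differ in a constant direction, with 402.5 and 409.5 bp in replicate 1, 403 and 395.5 bp in replicate 2 and 385 bp for both in replicate 3 (ratio 1.0 ± 0.02, exact permutation p = 1, adjusted p = 1).

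By size, 729 of the 1494 III regions (48.8%) were at least 250 and under 500 bp wide. Another 233 were narrower, and 410 were at least 500 and under 1000 bp. The 24 regions of 2000 bp or more made up 1.61% of III, against 1.56% of the whole combined list, and 24 of 24 were found in all 3 replicates, close to the 103 of 114 (90.4%) of that size on other chromosomes. Of the 24, 16 lay in the centre, which held 57.2% of all III regions. At the other extreme, 23 combined III regions (1.54%) were under 50 bp, down to 2 bp, against 2.04% of the whole combined list. Of the 23, 20 were found in no replicate, a share not counted for other chromosomes. None of the 23 ranked better than 5992. Replicates 2 and 3 had 0 III regions of that size, and replicate 1 had 5.

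Good ranks were somewhat more frequent on III than its share of regions. Of the 500 best-ranked regions of replicates 1, 2 and 3, III had 98, 106 and 113, or 19.6%, 21.2% and 22.6%. Its share of the whole list was 17.5%, 18.9% and 20.9%. The ratio of these shares was 1.11 ± 0.02 (SD, n = 3, above 1 in 3 of 3 replicates, exact permutation p = 0.25, adjusted p = 0.30). The direction did not hold for the top of the lists: among the 100 best, III held 18, 15 and 20 regions, and the mean ratio was 0.93. In the combined list III held 18 of the best 100, 97 of the best 500 and 191 of the best 1000. Of these 191, 191 were found in all 3 replicates. That share was not counted for the best 1000 of all chromosomes, so it cannot be read as a trait of III.

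Of the 20 best-ranked III regions, 14 lay in the centre, 5 on the right arm and 1 on the left. The centre held 57.2% of all III regions, and 54.5% of the 374 best-ranked. The 20 best were broad, with a median of 2550 bp and a range from 825 to 7045 bp. In all 3 replicates 20 of 20 were found, with no like count made for other chromosomes. Within a replicate the best 20 were less broad, with medians of 1076, 825 and 650 bp in replicates 1, 2 and 3. Regions under 500 bp took 0, 5 and 7 of those 20 places. The 20 best of the 3 replicates fell in 32 combined regions, of which 8 were among the 20 best of each replicate. They are given below from left to right with their ranks over whole lists.

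A region from 3866987 to 3867812 was at ranks 70, 34 and 26 in replicates 1, 2 and 3 and only at rank 168 in the combined list. The next, from 4281764 to 4282766, held ranks 35, 51 and 35. The widest III region, from 5754221 to 5761265, had ranks 16, 23 and 36, the best of III in replicates 1 and 2 but not in replicate 3. All of these are central. Also central were 8416847 to 8418050 and 8799331 to 8802687, the former at ranks 23, 38 and 44 and the latter at ranks 59, 59 and 55. Close to the right boundary of the centre, 9618768 to 9620044 had ranks 57, 94 and 57, and 10151409 to 10153967 had ranks 48, 64 and 67. The only arm region of the 8 ran from 10758718 to 10759757, with ranks 78, 47 and 50 in the replicates and 177 in the combined list.

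Other regions of the combined top were ranked unevenly. The region in place 2 of III, from 5937762 to 5941433, was at rank 26 in replicate 1, at 105 in replicate 2 and at 191 in replicate 3. A 5736 bp region from 3953181 to 3958916 was at rank 48 in the combined list, but its best pieces were at 505, 371 and 1123. The reverse was seen from 5678866 to 5679299, a 434 bp region of combined rank 333 that was at 147, 97 and 33 in replicates 1, 2 and 3. Over the III regions found in both lists of a pair, Spearman's rho of rank was 0.85 for replicates 1 and 2 (857 regions) and 0.80 for each pair with replicate 3 (552 and 542 regions). On the other chromosomes it was 0.84 for replicates 1 and 2 and 0.76 for each pair with replicate 3. These are correlations across regions, with no test.

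**Figure D4:**
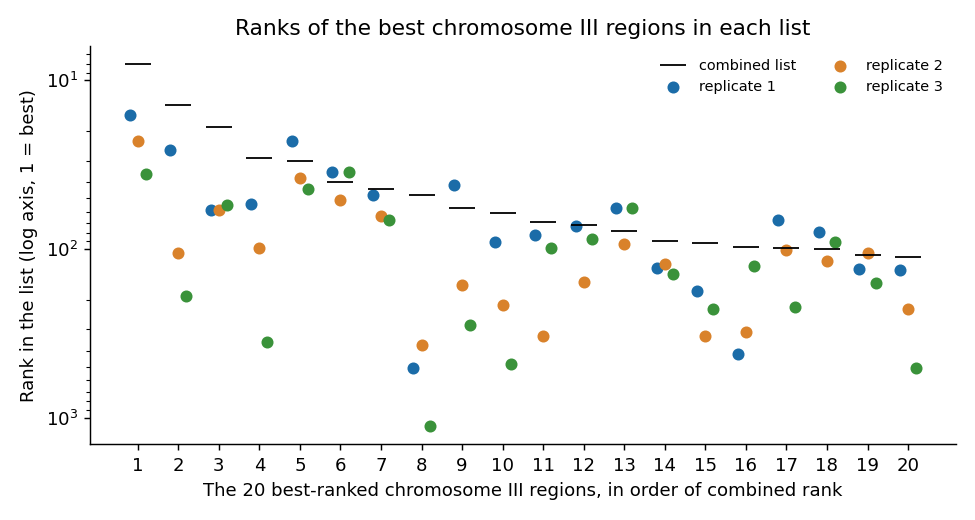
Rank in the whole list (vertical log axis, best rank at the top) of the 20 best-ranked chromosome III regions, in order of combined rank, with 1 point for each replicate and a dash for the combined list; where a region holds several replicate regions, the best of their ranks is drawn. The points of a region lie close together for the region in place 5, at 23, 38 and 44, and far apart for that in place 8, at 505, 371 and 1123.

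The arms had leading regions of their own. On the left arm the best combined region ran from 348406 to 350392, at rank 69, with ranks 83, 329 and 98 in replicates 1, 2 and 3. The left arm leader differed in each replicate: 1920819 to 1921809 at rank 74 in replicate 1, 1080532 to 1080944 at rank 84 in replicate 2 and 2597005 to 2597447 at rank 71 in replicate 3. On the right arm 3 of the 20 best combined regions lay close together, from 13060798 to 13063337, from 13067943 to 13068767 and from 13069097 to 13072457. Their combined ranks were 97, 98 and 72. Further right arm regions of the 20 best were 12612144 to 12613708 at rank 100 and 12368099 to 12370348 at rank 111. By 1 Mb bin, the best rank was between 8 and 201 in 13 of 14 bins. It was 276 from 11 to 12 Mb, for a 416 bp region from 11007598 to 11008013 that ranked 277, 224 and 287 in the replicates.

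Broad combined regions were often resolved into several replicate regions. The 7045 bp region from 5754221 to 5761265 covered 3 regions of replicate 1, 3 of replicate 2 and 6 of replicate 3. Its main piece was 4302 bp wide in replicate 1 (5755072 to 5759373), 4307 bp in replicate 2 (5755914 to 5760220) and 2233 bp in replicate 3 (5757258 to 5759490). The stretch from 5757258 to 5759373 thus lay within the main piece of each replicate. In the region from 4192977 to 4197329, 4353 bp wide, the main piece was 3208 bp in replicate 1, 2907 bp in replicate 2 and 1365 bp in replicate 3. Of the III regions found in a replicate, 2.62%, 3.49% and 3.96% held more than 1 region of replicates 1, 2 and 3, against 2.54%, 2.78% and 2.75% of all combined regions. On III 48 regions were resolved in this way in at least 1 replicate, with a median width of 1766 bp, and 10 in all 3.

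Edges of III regions rarely coincided closely among the replicates, as on the other chromosomes. Over the 539 regions found in all 3, the start varied by a median of 69 bp and the end by 71 bp, against 83 bp for each on other chromosomes. Both edges lay within 10 bp in 2 of these 539 regions, or 0.371%, against 0.461% over all chromosomes. They ran from 3857061 to 3857273 and from 7572796 to 7573253, 213 and 458 bp wide, with combined ranks 3855 and 946. The labels put the transgene on III without a position. In the RefSeq gene table, on the later assembly WBcel235, the genes unc-55, ttr-39 and dpy-20 lie on chromosomes I, IV and IV, so none of the 3 genes named in or near the transgene's label is on III. No region of III can be tied to the insertion from these files.

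Neighbouring III regions were separated by a median gap of 4.14 kb (quartiles 1.34 and 10.8 kb) in the combined list. The median gap was 5.57, 8.26 and 14.2 kb in replicates 1, 2 and 3, longer as the lists shortened. No gap was under 202 bp in any list on III, or under 201 bp on any chromosome, so regions nearer than that are not listed apart. In the centre the median gap was 3.80 kb in the combined list, against 5.64 kb on the left arm and 4.10 kb on the right arm. Gaps over 50 kb numbered 26 of 1493 on III in the combined list. They were 17 of 292 gaps on the left arm, 4 of 855 in the centre and 5 of 346 on the right arm. No such count is given for other chromosomes.

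**Figure D5:**
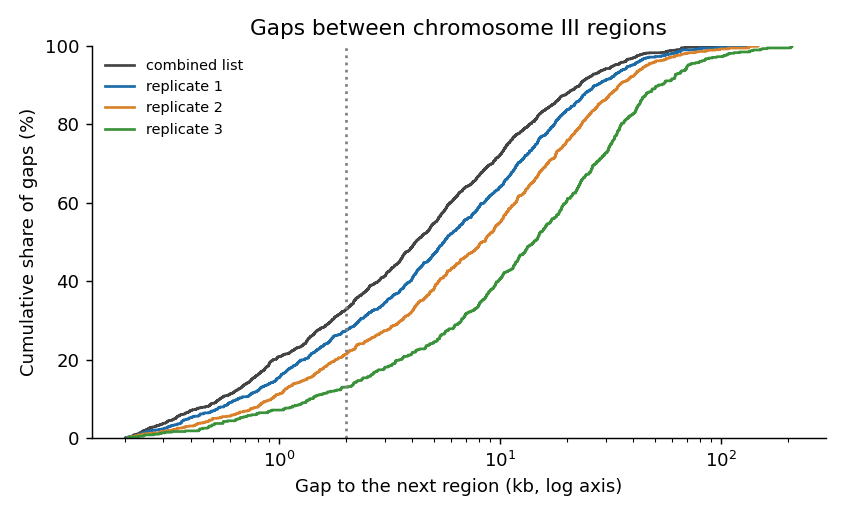
Cumulative share of gaps between neighbouring chromosome III regions (vertical axis, %) by gap length in kb on a log axis, with 1 line for each list and a dotted line at 2 kb. At 2 kb the lines stand at 32.8% in the combined list and at 27.4%, 21.4% and 13.0% in replicates 1, 2 and 3.

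Neighbours at most 2 kb apart made up 27.4%, 21.4% and 13.0% of III gaps in replicates 1, 2 and 3, against 25.2%, 18.4% and 11.4% on the other chromosomes. The ratio was above 1 in 3 of 3 replicates, at 1.13 ± 0.04 (SD, exact permutation p = 0.25, adjusted p = 0.30). It was not particular to III, since chromosome V had the higher shares of 28.9%, 21.5% and 14.3% in replicates 1, 2 and 3. In the combined list it was 1.01, with 32.8% on III against 32.5% elsewhere. III also held more regions per Mb than the other chromosomes, and the part of density in the short gaps was not tested. Chromosome V had its higher shares at 57.5, 41.4 and 25.5 regions per Mb in replicates 1, 2 and 3. Chained by gaps of at most 2 kb, the 1494 combined regions formed 713 single regions, 182 pairs and 110 runs of 3 or more, the runs holding 417 regions. Regions with a neighbour that close made up 52.3% on III, within the range of 48.3% on IV to 56.2% on II. The longest runs had 9 regions each on III, against 8 on II and up to 11 on X. Those of III spanned 15.8 kb from 4191008 to 4206795, 8.77 kb from 6073490 to 6082260 and 13.1 kb from 8869733 to 8882848, all in the centre. A run of 8 lay on the right arm from 13268708 to 13278569, with 5 of its regions found in all 3 replicates. The run from 8290126 to 8300176 differed, since 0 of its 7 regions were found in all 3. Regions with a neighbour within 2 kb were found in all 3 replicates in 259 of 781 cases (33.2%), and those without in 280 of 713 (39.3%). This comparison was made for III only, so it cannot be read as a trait of III.

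The longest empty stretch of III lay on the left arm between 2172348 and 2304789, 132 kb with 0 regions in any of the 4 lists. Next in the combined list came 95.2 kb between 6738207 and 6833430, where replicate 1 listed 1 region. The third, 93.3 kb between 12058708 and 12152028 on the right arm, held 1 region of replicate 2. In replicate 3 alone the longest gap was 209 kb, from 11371465 to 11580452, a stretch in which the combined list had 15 regions and replicates 1 and 2 had 8 and 4. At the chromosome ends, the first combined region began at 6684 and the last ended at 13771446. Replicates 1 and 2 began at 6757 and 6683, whereas replicate 3 began at 25542.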

How the data were processed

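The authors deposited 4 lists of binding regions: 1 combined list and 1 for each of the 3 ChIP replicates. PeakSeq was the caller and WS220 the build, per the file headers and fields. The deposited score is the caller's p-value or q-value for each region, at most 0.001. Whether it is adjusted is not stated. Start and end positions count from 1 in the deposited lists. Not given in the sources used here are the aligner, the caller's version and thresholds, and the way of combining replicates.

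Regions were ranked within a list by score, then by peak number. Density used the sequence up to the last region of a chromosome in any list. Lists were matched by overlap of at least 1 bp, and counts had 0 differences from bedtools 2.31.1. Ratios were computed per replicate and tested by exact two-sided sign-flip permutation over 3 replicates, with Benjamini-Hochberg adjustment over 6 tests. Another 5 comparisons were added after the data were examined. The overlap, density and gap code was tested on simulated data. The regions named were taken from the 20 best-ranked, the best of each 1 Mb bin and of centre and arms, and the 10 widest. Also used were the 3 longest gaps, the best without a match and those with both edges within 10 bp. Not every member of these sets is named. Other named regions (runs, 8 shared leaders, uneven ranks) were chosen after their values were seen. The members, lists and tests were chosen with earlier results of these data known. The planned half-site count and all gene names were left out, because the gene table used here is on another build. The tools were SciPy 1.17.1, pandas 2.3.3, numpy 2.4.6 and matplotlib 3.10.9 under Python 3.11.15.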

Additional observations from a re-analysis of the deposited data

How the results depend on the processing

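No paired analysis was possible because the input samples have no region list used here, so ChIP and input were not compared; the tests compare parts of each replicate's own list. No permutation test over 3 replicates could pass, so alternatives were judged by direction and by the SD of the replicates, and the cause of the changes below was not tested. The density ratio of III, 1.48 in the main analysis, was 1.28 in the combined list, and between 1.39 and 1.56 when each replicate was left out. The centre-to-arms density ratio, 1.52, was 1.42 in the better-scored 50% of each list, 1.46 with the same number of best-scored regions from each, 1.45 in the combined list, 1.42 and 1.64 with boundaries moved 0.5 Mb inwards and outwards, and 1.61 by covered bp. The width ratio of III, 0.95, was 0.93 in the better-scored 50% and 0.94 with equal numbers. The centre-to-arms width ratio, 1.0, lay between 0.99 and 1.01 when each replicate was left out, turned to 0.998 in the combined list, and was 1.02 in both the better-scored 50% and equal numbers. The close neighbour ratio, 1.13, was 1.35 in the better-scored 50%, 1.20 with equal numbers and 1.01 in the combined list. The ratio for the best 500 regions, 1.11, was 1.06 in the better-scored 50%, 1.15 in the combined list, 0.93 for the best 100 and 1.06 for the best 2000. Regions found in all replicates, 539, numbered 542 to 857 when each replicate was left out, with the highest count in the absence of replicate 3. They numbered 272 in the better-scored 50%, a set with fewer regions by construction. The centre minus arms share found in all replicates, 1.24 points, was 0.423 to 1.59 points when each replicate was left out and -2.99 points in the better-scored 50%. It was 0.329 points with a reciprocal overlap of at least 50% and 0.557 points with midpoints within 200 bp, all of these but the reversed one within 3.33 points, the half-width of the exact 95% interval of the central share. The remaining alternatives of the ratios kept their direction and stayed within the SD, and those of the count within 1.5 times. Depth is unknown, so regions missing from the short list of replicate 3 are not shown to be unbound.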
